A study of Mus musculus with 12 samples.

Results

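De novo lipogenesis builds fatty acids from the acetyl units of sugar and acetate. The genes described here are 10 of its enzymes, modulators and transcription factors, namely Fasn, Acly, Acaca, Acacb, Acss2, Me1, Thrsp, Mid1ip1, Srebf1 and Mlxipl. They were chosen by name from a table of 61210 genes, and all 10 were listed and were among the 16737 genes tested. In interscapular brown adipose tissue (iBAT), cold and high-fat diet (HFD) together left the transcripts of 3 core enzymes, Fasn, Acly and Acaca, at 6.73%, 3.78% and 7.07% of their level in mice on control diet at room temperature in the fitted model. In the same comparison the transcription factor gene Srebf1 was at 56.6% of its control level. Srebf1 passed no adjusted test in the fit to all libraries.

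Total RNA of iBAT was sequenced in 12 libraries from wild type C57BL/6N mice, all 20 weeks old. Mice on normal chow diet (NCD) were housed at room temperature (NCD RT, n = 3) or placed at 4 °C for 24 h (NCD cold, n = 3). Other mice changed to HFD at 8 weeks of age, ate it for 12 weeks and were kept at either temperature in the same way (HFD RT, n = 3, and HFD cold, n = 3). No gene was deleted and no agent was given. The labels mark replicates 1 and 2 of every group as batch 1 (8 libraries) and replicate 3 as batch 2 (4 libraries). They do not say that each library was 1 animal, so p-values measure the spread between these libraries.

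Libraries held 15136861 to 46740702 estimated counts, and the lowest count of a lipogenesis gene in a library was 508 (Mid1ip1 in HFD cold replicate 1), so no value rested on few counts. The labelled tissue was checked on 8 brown adipocyte marker genes, all above the filter, with a summed level of 6695 to 8273 CPM (normalised counts scaled to a common library size) in NCD RT and 20941 to 24211 CPM in NCD cold. Markers of skeletal muscle, which borders this depot, stood apart in 1 library of each group. The sum over 10 muscle genes was 16352 CPM in NCD RT replicate 2, 8893 CPM in NCD cold replicate 2, 17437 CPM in HFD RT replicate 3 and 5249 CPM in HFD cold replicate 3, and between 556 and 3471 CPM in the other 8 libraries. Counts of genes called are therefore also given without those 4 libraries.

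In this pathway the citrate carrier exports citrate from mitochondria, ATP citrate lyase (Acly) splits it into acetyl-CoA, and acetyl-CoA synthetase (Acss2) makes acetyl-CoA from acetate. Acetyl-CoA carboxylase 1 (Acaca) converts acetyl-CoA into malonyl-CoA, which fatty acid synthase (Fasn) elongates to palmitate with NADPH that malic enzyme (Me1) helps to supply. Brown fat is known for a high rate of this synthesis beside its high rate of fatty acid oxidation. Acetyl-CoA carboxylase 2 (Acacb) makes malonyl-CoA at the mitochondrial surface, where it restrains fatty acid import. Thrsp (Spot 14) and Mid1ip1 (MIG12) are related proteins that modulate lipogenesis, and MIG12 promotes polymerisation of acetyl-CoA carboxylase. The transcription factors SREBP1 (Srebf1) and ChREBP (Mlxipl) drive lipogenic genes in response to insulin and to glucose.

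Promoter sequences are shown for 4 genes. Of these, 3 (Fasn, Acly and Thrsp) are among the genes that fell strongly, and the fourth, Srebf1, encodes a factor that acts on them. Acaca also fell strongly, but its sequence is not shown. Each is the 250 bases before a RefSeq transcription start on GRCm38.p6, written 5′ to 3′ on the strand of the gene. Capitals mark matches to 5 motifs searched on both strands, namely the CCAAT box (CCAAT), the GC box (GGGCGG), the palindromic E-box (CACGTG), the sterol regulatory element (TCACNCCAC) and an LXR response element (TGACC and TAACC with 5 bases between them). All genes shown lie on the minus strand.
Fasn, chr11:120824548-120824797: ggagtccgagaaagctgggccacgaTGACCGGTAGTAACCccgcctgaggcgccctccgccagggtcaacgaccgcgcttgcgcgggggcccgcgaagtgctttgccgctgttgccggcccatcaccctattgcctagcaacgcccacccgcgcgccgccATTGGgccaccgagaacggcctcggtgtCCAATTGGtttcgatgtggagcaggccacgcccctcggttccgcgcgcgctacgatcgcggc
Acly, chr11:100528001-100528250: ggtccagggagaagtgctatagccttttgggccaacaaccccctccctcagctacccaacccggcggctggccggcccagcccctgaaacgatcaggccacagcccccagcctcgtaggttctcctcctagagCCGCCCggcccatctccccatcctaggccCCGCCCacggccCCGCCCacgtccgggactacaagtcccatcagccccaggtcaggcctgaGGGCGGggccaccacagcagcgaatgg
Thrsp, chr7:97417551-97417800: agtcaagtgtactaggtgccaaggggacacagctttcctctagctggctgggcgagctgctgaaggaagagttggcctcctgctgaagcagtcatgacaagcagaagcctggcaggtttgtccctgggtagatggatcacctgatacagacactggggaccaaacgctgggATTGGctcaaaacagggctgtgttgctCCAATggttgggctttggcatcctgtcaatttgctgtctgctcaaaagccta
Srebf1, chr11:60210472-60210721: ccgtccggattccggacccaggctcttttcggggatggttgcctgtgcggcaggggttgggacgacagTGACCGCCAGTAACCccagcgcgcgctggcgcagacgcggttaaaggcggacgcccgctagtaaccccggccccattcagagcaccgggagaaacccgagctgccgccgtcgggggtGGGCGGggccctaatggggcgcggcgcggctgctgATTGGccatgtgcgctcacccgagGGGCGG
Among 32851 RefSeq windows of 250 bases, 33.8% hold the CCAAT box, 32.7% the GC box, 6.02% the E-box, 1.05% the sterol regulatory element and 0.0457% (15 windows) the LXR response element. The Fasn window holds the CCAAT box at 3 places, 2 of which overlap on opposite strands (62 to 58 and 59 to 55 bases before the start), and the LXR response element 225 to 211 bases before the start. The Srebf1 window, 1 of 3 that RefSeq gives for this gene, holds the LXR response element 182 to 168 bases before its start. That motif was added after these sequences had been read, so its matches in Fasn and Srebf1 are a description only. The Acly window holds 4 GC boxes and no CCAAT box, and the Thrsp window 2 CCAAT boxes and no GC box. In the Acaca window, which is not shown, each of the 5 motifs had 0 matches. Over the 14 windows of the 10 genes, the sterol regulatory element matched once and the E-box once, both in windows of Mlxipl. A match shows the letters and not a bound site.

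Fasn (chr11:120805846-120824547, GRCm38) was the most abundant lipogenesis gene in every group, also per kilobase of exon. It took 5.06% to 5.79% of all counts in NCD RT, where it ranked 2 among all genes, and 0.299% to 0.665% in HFD cold, where it ranked between 8 and 21. Its levels were 58377, 54549 and 61530 CPM in NCD RT, 44074, 38316 and 45032 CPM in NCD cold, 37253, 25229 and 24300 CPM in HFD RT and 3002, 6152 and 2595 CPM in HFD cold. The 4 groups therefore stood in separate steps, without overlap between any of them, and HFD cold was far below the rest. The 10 genes together took 7.52% to 8.63% of counts in NCD RT, 5.32% to 6.32% in NCD cold, 3.74% to 5.66% in HFD RT and 0.755% to 1.29% in HFD cold.

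Acly (chr11:100476353-100528000) had 10377, 7371 and 8845 CPM in NCD RT and 8264, 4534 and 7352 CPM in NCD cold. It had 5452, 2936 and 2964 CPM in HFD RT and 234, 474 and 298 CPM in HFD cold. The NCD groups overlapped, and both HFD groups were below both NCD groups apart from HFD RT replicate 1, which exceeded NCD cold replicate 2. Acaca (chr11:84129672-84401651) had 12657, 9518 and 10880 CPM in NCD RT and 8530, 5626 and 6883 CPM in NCD cold. It had 6880, 4544 and 4397 CPM in HFD RT and 641, 1047 and 648 CPM in HFD cold, again the lowest group by a wide gap.

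**Figure D1:**
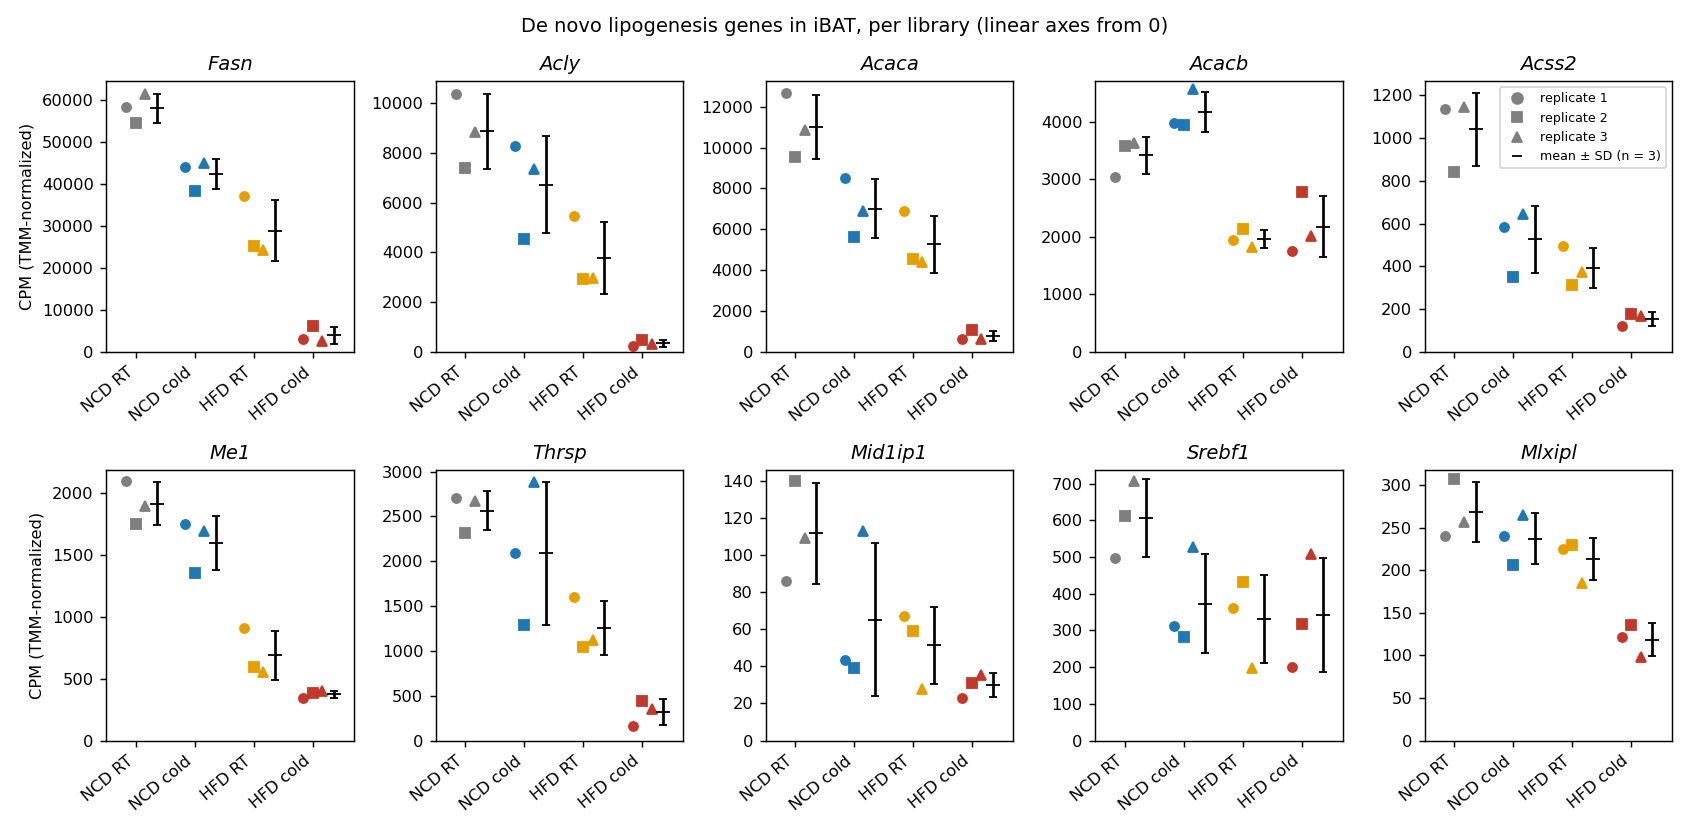
CPM of each lipogenesis gene (linear axes from 0) in the 3 libraries of each group, with marker shapes for replicates and black bars for the mean ± SD. Fasn, Acly and Acaca drop to 3916, 335 and 779 CPM on average in HFD cold, whereas Acacb stays near its HFD RT level. The Srebf1 libraries overlap between all groups except NCD RT and HFD RT.

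Acss2 (chr2:155517948-155585724) had 1136, 843 and 1145 CPM in NCD RT, 584, 349 and 645 CPM in NCD cold, 496, 312 and 372 CPM in HFD RT and 119, 178 and 167 CPM in HFD cold. It was thus lower in the cold on both diets without overlap. Me1 (chr9:86581371-86695953) had 2102, 1748 and 1899 CPM in NCD RT and 1754, 1351 and 1696 CPM in NCD cold, ranges that overlapped. On HFD it had 912, 596 and 556 CPM at room temperature and 344, 383 and 397 CPM in the cold, which were separated from each other and from NCD.

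Acacb (chr5:114146535-114250761) followed another order. It had 3049, 3577 and 3638 CPM in NCD RT and 3989, 3945 and 4568 CPM in NCD cold, so the cold libraries were the higher ones on NCD. On HFD it had 1942, 2133 and 1824 CPM at room temperature and 1749, 2783 and 2013 CPM in the cold, with overlap.

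Thrsp (chr7:97412938-97417730) had 2702, 2317 and 2678 CPM in NCD RT, 2088, 1290 and 2886 CPM in NCD cold, 1604, 1043 and 1124 CPM in HFD RT and 163, 437 and 354 CPM in HFD cold. Its NCD cold replicates spread widely, from the highest value of any library to one within the HFD RT range. Mid1ip1 (chrX:10715013-10719690) was the least abundant gene by CPM, with 86.2, 140 and 109 CPM in NCD RT, 43.7, 39.2 and 113 CPM in NCD cold, 67.3, 58.9 and 28.1 CPM in HFD RT and 22.9, 31.1 and 35.6 CPM in HFD cold. In NCD cold its replicate 3 stood near NCD RT and the other two near the HFD levels.

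Srebf1 (chr11:60199089-60222581) had 497, 613 and 709 CPM in NCD RT, 312, 281 and 528 CPM in NCD cold, 362, 431 and 198 CPM in HFD RT and 202, 318 and 509 CPM in HFD cold. The last 3 groups overlapped throughout, with means of 374 ± 134, 330 ± 120 and 343 ± 155 CPM (SD, n = 3). NCD RT lay above HFD RT but overlapped NCD cold and HFD cold. Mlxipl (chr5:135089890-135138382) had 240, 308 and 256 CPM in NCD RT, 240, 206 and 265 CPM in NCD cold, 225, 229 and 185 CPM in HFD RT and 122, 136 and 97.9 CPM in HFD cold. For Mlxipl, HFD cold lay below every other library, and HFD RT lay below NCD RT but not apart from NCD cold.

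The first comparison asked what cold did in mice on NCD. A gene was called when its Benjamini-Hochberg adjusted p in edgeR's quasi-likelihood test was under 0.05 over all genes tested and its log2 fold change exceeded 0.5 in size. Of the 10 genes, 1 was called, against 6.27% of all genes tested in either direction and 2.55% lower, and this was Acss2, which dropped by 0.99 log2 units (SE 0.25, adjusted p = 0.0390). Its call was lost in 5 of the fits that left out 1 library, namely any NCD RT library or replicate 1 or 2 of NCD cold (adjusted p = 0.0544 to 0.118), in batch 1 alone (adjusted p = 0.144) and without the 4 libraries rich in muscle markers (adjusted p = 0.117). Mid1ip1 (-0.77, SE 0.41, adjusted p = 0.313) passed without NCD cold replicate 3 (-1.42, adjusted p = 0.0453) and in batch 1 alone (-1.45, adjusted p = 0.0374). Log2 fold changes that did not pass were -0.45 for Fasn (SE 0.29, adjusted p = 0.422), -0.65 for Acaca (SE 0.25, adjusted p = 0.145), -0.40 for Acly (SE 0.32, adjusted p = 0.542) and 0.28 for Acacb (SE 0.17, adjusted p = 0.370). The groups did not overlap for 4 genes, Fasn, Acaca and Acss2 with lower and Acacb with higher values in the cold, and the same held for 27.8% of all genes tested. In bulk tissue, fewer cells of a type and less RNA per cell cannot be told apart. The summed fibroblast markers went from 1346 to 2165 CPM in NCD RT to 674 to 787 CPM in NCD cold, with 5 of 8 of these genes lower. Other sums that separated without overlap were 14706 to 15954 and 23371 to 24978 CPM for pan-adipocyte markers, in the same order. White adipocyte markers had 177 to 314 and 50.8 to 148 CPM, and hepatocyte markers 107 to 184 and 67.4 to 70.9. Endothelial markers had 540 to 672 and 766 to 849 CPM. The part of these and other cell types in these differences was not tested.

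In mice on HFD, 7 of the 10 genes were called lower in the cold and none higher, against 9.58% of all genes called in either direction and 4.19% called lower. Acly dropped by 3.50 log2 units (SE 0.36, adjusted p = 0.000354), which is 11.3-fold. Fasn fell by 2.88 (SE 0.31, adjusted p = 0.000489), or 7.39-fold, and Acaca fell by 2.76 (SE 0.26, adjusted p = 0.000285), or 6.77-fold. Thrsp fell by 1.98 (SE 0.36, adjusted p = 0.00656) and Acss2 fell by 1.35 (SE 0.26, adjusted p = 0.00760). Me1 and Mlxipl changed less, with log2 fold changes of -0.88 (SE 0.19, adjusted p = 0.0122) and -0.85 (SE 0.16, adjusted p = 0.00672). Ranked by p among the 16737 genes, Acaca was 22, Acly 34 and Fasn 48.

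Acacb (log2 fold change 0.15, SE 0.17, adjusted p = 0.601), Srebf1 (0.05, SE 0.36, adjusted p = 0.940) and Mid1ip1 (-0.78, SE 0.42, adjusted p = 0.252) were not called. The 95% interval for Srebf1 ran from -0.75 to 0.85, and that for Acacb from -0.22 to 0.52. The same 7 genes were separated without overlap, as were 30.3% of all genes tested in either direction and 14.4% with lower values in the cold. Without the 4 muscle-rich libraries the same 7 genes were called, with log2 fold changes of -3.57 for Acly, -2.77 for Fasn and -2.76 for Acaca. Batch 1 alone called 4, Fasn, Acly, Acaca and Mlxipl, and Me1 was not called without HFD cold replicate 1 (adjusted p = 0.0629). The pan-adipocyte marker genes had a median log2 fold change of 0.07, with Adipoq lower (-0.69) and Lpl higher (1.80), and the 10 muscle genes one of -1.77, with 0 called by edgeR. The pan-adipocyte sum rose without overlap, with 13080 to 15825 CPM in HFD RT and 20359 to 22880 CPM in HFD cold. So did the brown adipocyte sum (8976 to 11324.5 and 16503 to 20261 CPM). The white adipocyte sum fell without overlap (116 to 313 and 52.2 to 97.0 CPM). Among 10 immune genes Cd68 (1.72, adjusted p = 0.0319) and S100a8 (2.92, adjusted p = 0.0325) were called higher and 0 lower. The list had a median of 0.16, with 6 of 10 values above 0, and Ptprc (-0.23) and Adgre1 (-0.17) were among those below 0. The part of these cell types in the results was not tested.

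**Figure D2:**
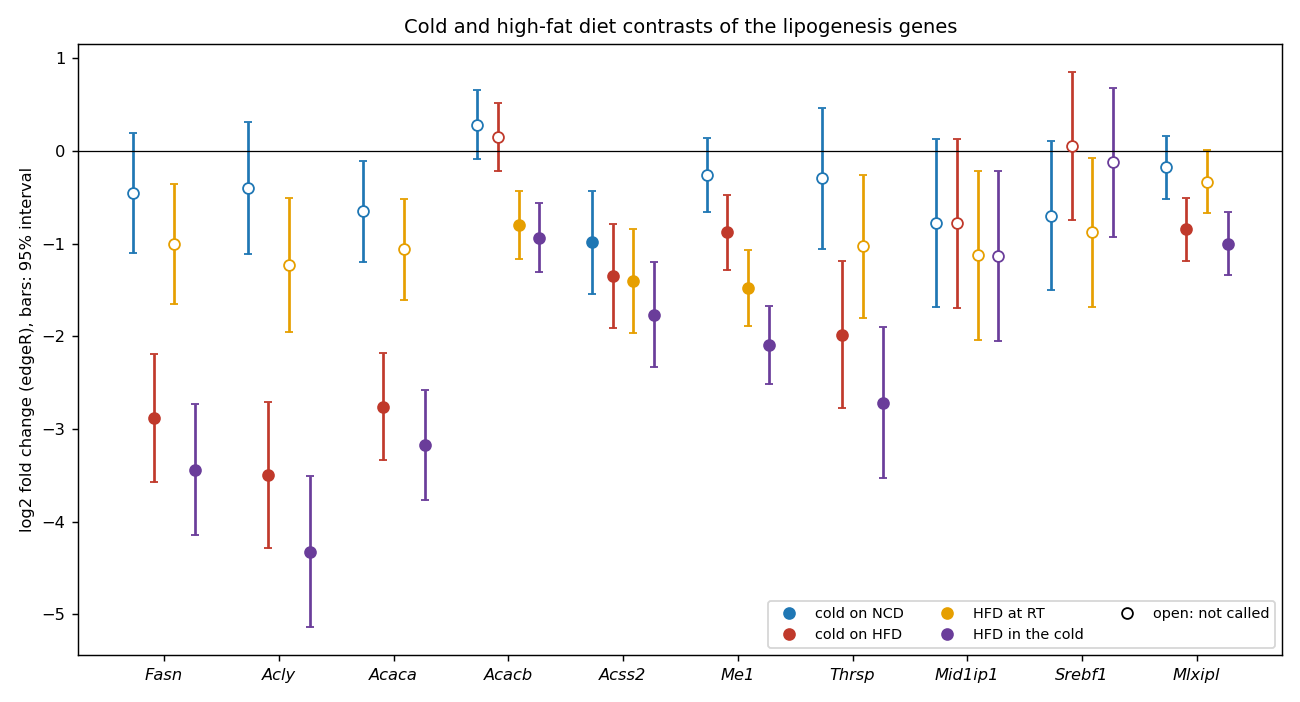
Log2 fold changes (edgeR) with 95% intervals for cold on each diet and for HFD at each temperature, with filled points for genes called and open points for genes not called. Cold on HFD and HFD in the cold reach -3.50 and -4.32 for Acly, while all Srebf1 points are open.

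The diet comparison at room temperature called 3 genes lower and none higher, against 2.09% of all genes in either direction and 1.09% lower. They were Me1 (log2 fold change -1.48, SE 0.19, adjusted p = 0.00342), Acss2 (-1.40, SE 0.26, adjusted p = 0.0186) and Acacb (-0.80, SE 0.17, adjusted p = 0.0372). Acaca (-1.06, SE 0.25, adjusted p = 0.0539), Acly (-1.23, SE 0.33, adjusted p = 0.0814) and Fasn (-1.01, SE 0.30, adjusted p = 0.107) had lower values that did not pass. In all 10 genes every HFD RT library was below every NCD RT library, a separation found in 25.9% of all genes tested in either direction and in 12.9% with lower HFD RT values. The count moved with the method. DESeq2 called 7 genes and edgeR without a filter on low counts 6, while leaving out 1 library gave 1 to 5 (1 without NCD RT replicate 1 or 3 or HFD RT replicate 2 or 3, and 5 without HFD cold replicate 2), the set without muscle-rich libraries 1 (Me1) and batch 1 alone 0. Me1 was called in each of the 12 fits with 1 library left out. Summed markers of several other cell types were separated without overlap between these groups, with 1346 to 2165 CPM in NCD RT and 700 to 1017 CPM in HFD RT for fibroblasts, 107 to 184 and 39.9 to 53.0 for hepatocytes, 540 to 672 and 748 to 1009 for endothelial cells and 189 to 237 and 274 to 363 for Schwann cells. Erythroid markers were separated as well, with 1210 to 1773 CPM in NCD RT and 793 to 1167 CPM in HFD RT. Called single markers of these types and of white adipocytes were Pecam1 (0.72, adjusted p = 0.00786) and S100b (adjusted p = 0.0104), both higher, and Trf (-1.63) and Retn (-2.28), both lower. The brown adipocyte sum was also separated, with 6695 to 8273 CPM in NCD RT and 8976 to 11324.5 CPM in HFD RT. Of its 8 genes, 2 were called higher, Ucp1 (0.74, adjusted p = 0.0484) and Pank1 (0.57, adjusted p = 0.0324), and 0 lower. The part of all these cell types in the result was not tested.

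In the cold, HFD was associated with lower levels of 8 genes and higher levels of none, against 4.75% of all genes in either direction and 2.69% called lower. Acly dropped by 4.32 log2 units (SE 0.37, adjusted p = 0.000333), or 20.0-fold, Fasn fell by 3.44 (SE 0.32, adjusted p = 0.000456), or 10.8-fold, and Acaca fell by 3.17 (SE 0.27, adjusted p = 0.000333). Thrsp fell by 2.72 (SE 0.37, adjusted p = 0.00294), Me1 fell by 2.09 (SE 0.19, adjusted p = 0.000428) and Acss2 fell by 1.77 (SE 0.26, adjusted p = 0.00430). Mlxipl fell by 1.00 (SE 0.16, adjusted p = 0.00593) and Acacb fell by 0.93 (SE 0.17, adjusted p = 0.0121). Acaca, Acly, Me1 and Fasn ranked 5, 6, 9 and 10 by p among the 16737 genes tested.

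Mid1ip1 (-1.13, SE 0.42, adjusted p = 0.135) and Srebf1 (-0.12, SE 0.36, adjusted p = 0.890) did not pass. The groups did not overlap for 9 genes, all but Srebf1, against 25.2% of all genes in either direction and 13.1% with lower values on HFD. Without the muscle-rich libraries 7 genes were called, and Acacb was the one not called (adjusted p = 0.0841), as without HFD cold replicate 1 or 3 (adjusted p = 0.0517 and 0.0582). Batch 1 alone called 4, Fasn, Acly, Acaca and Me1. Immune markers had a median log2 fold change of 0.75 in this contrast, with Cpa3 and Itgam called higher among 10 tested. They summed to 98.4 to 196 CPM in HFD cold against 74.8 to 99.6 CPM in NCD cold, with overlap. Brown adipocyte markers summed lower in HFD cold without overlap (16503 to 20261 against 20941 to 24211 CPM). So did pan-adipocyte markers (20359 to 22880 against 23371 to 24978 CPM). Endothelial and Schwann cell markers summed higher without overlap (999 to 1121 against 766 to 849 and 243 to 310 against 193 to 224 CPM). The part of these cell types in the result was not tested.

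Mice with both HFD and cold, compared with NCD RT, showed 9 genes called lower, all but Srebf1, against 18.2% of all genes called in either direction and 8.71% called lower. Acly dropped by 4.72 log2 units (SE 0.38, adjusted p = 3.31e-05), or 26.4-fold, Fasn fell by 3.89 (SE 0.33, adjusted p = 4.03e-05), or 14.8-fold, and Acaca fell by 3.82 (SE 0.28, adjusted p = 1.85e-05), or 14.1-fold. Thrsp fell by 3.01, Acss2 fell by 2.75, Me1 fell by 2.35, Mid1ip1 fell by 1.90, Mlxipl fell by 1.18 and Acacb fell by 0.65. Srebf1 stood at -0.82 (SE 0.37, adjusted p = 0.137), with a 95% interval from -1.63 to -0.02 before adjustment. Srebf1 was called in batch 1 alone (-1.09, adjusted p = 0.0241), without the muscle-rich libraries (-1.21, adjusted p = 0.0334) and without HFD cold replicate 3 (-1.24, adjusted p = 0.0460). Acacb was not called in batch 1 alone (-0.55, adjusted p = 0.150), without the muscle-rich libraries (adjusted p = 0.143), in a fit of only the libraries compared (adjusted p = 0.0576) or without NCD RT replicate 2 or 3 or HFD cold replicate 1 or 3 (adjusted p = 0.0544 to 0.0627). The set without muscle-rich libraries called 9 of the 10 genes, and 2646 of 16659 genes in all. The groups did not overlap for 9 genes, again all but Srebf1, against 40.3% of all genes tested in either direction and 19.2% with lower values. Fibroblast genes were called lower for Col1a1, Col1a2, Col3a1 and Lum (-1.32 to -2.21) and higher for Ly6a (0.88), and 5 of 7 endothelial genes, Pecam1, Kdr, Cdh5, Emcn and Tie1, were higher (0.53 to 1.01). Of 10 immune genes, Cd68 and S100a8 were higher (1.82 and 3.03). Hepatocyte genes had 1 higher and 2 lower of 5 tested, and Schwann cell genes 2 higher and 2 lower of 7. Brown adipocyte genes had 5 higher and 0 lower of 8, and pan-adipocyte genes 2 higher and 2 lower of 8. The brown adipocyte sum was higher without overlap, with 6695 to 8273 CPM in NCD RT and 16503 to 20261 CPM in HFD cold. The part of these cell types in the result was not tested. These contrasts share the NCD RT, NCD cold, HFD RT or HFD cold libraries with each other, so their likeness is not independent evidence.

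An interaction test asked whether the response to cold was the same on both diets. At an adjusted p of 0.05, edgeR called 0 of the 10 genes and 0 of the 16737 tested (0%), while 6 of the 10 and 6.52% of all genes had an unadjusted p under 0.05. The 6 were Acly, Acaca, Fasn, Thrsp, Mlxipl and Me1. Acly had the largest difference, -3.10 on the log2 scale (SE 0.47, adjusted p = 0.0979), followed by Fasn with -2.43 (SE 0.42, adjusted p = 0.166) and Acaca with -2.11 (SE 0.35, adjusted p = 0.160). DESeq2 called 61 genes in all, Fasn, Acly and Acaca among them (adjusted p = 9.21e-07, 7.18e-09 and 2.14e-06), and edgeR called the same genes without a filter on low counts (adjusted p = 0.00272, 0.000264 and 0.00272) and without HFD cold replicate 2 (adjusted p = 0.00169, 0.0235 and 0.0235). Blocking on the replicate number within diet called none of them (adjusted p = 0.151 to 0.153). The call of these 3 differences by edgeR thus changed with the filter and with 1 library, and DESeq2 differs in filter and scaling as well as in the test. Without the muscle-rich libraries 0 of the 10 genes were called.

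Averaged over the diets, cold was accompanied by lower levels of 7 genes (12.7% of all genes called, 6.60% lower), and averaged over temperatures, HFD by lower levels of 9 (7.80% of all genes called, 3.55% lower). Without the muscle-rich libraries these counts were 6 and 9, with 1706 and 1127 of 16659 genes called in all. In batch 1 alone they were 9, Srebf1 among them, and 7, with 1694 and 539 of 16587 genes called in all. Exact two-sided permutation tests within strata (400 arrangements) allow no p below 0.005. For the cold the exact p was 0.005 for Fasn, Acaca and Acss2, 0.01 for Acly and Me1, 0.02 for Thrsp, 0.025 for Mlxipl, 0.055 for Mid1ip1, 0.115 for Acacb and 0.295 for Srebf1. For the diet the exact p was 0.005 for each gene but Srebf1, where it was 0.11. These p-values are not adjusted, and the share of all genes that reach 0.005 was not computed. A test of any difference among the 4 groups had an adjusted p below 0.001 in edgeR for 5 genes, Fasn, Acly, Acaca, Acss2 and Me1, against 2.55% of all genes (24.3% at 0.05). DESeq2 passed 8 of the 10 and 2512 of 19138 genes in all, batch 1 alone 0 of the 10 and 0 of 16587, and the libraries without high muscle markers 0 of the 10 and 11 of 16659.

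The carboxylases diverged within libraries, as seen in the ratio of their CPM per kilobase. The Acaca to Acacb ratio was 1.84 ± 0.442 in NCD RT, 0.954 ± 0.220 in NCD cold, 1.52 ± 0.422 in HFD RT and 0.200 ± 0.0165 in HFD cold (SD, n = 3). Every HFD cold library lay between 0.181 and 0.212, below the lowest value of 0.804 in the other groups. The exact permutation p was 0.005 for the cold and 0.02 for the diet, from mean log2 differences of -1.92 and -1.26. The Fasn to Srebf1 ratio was 50.3 ± 8.80, 62.3 ± 15.9, 48.8 ± 17.0 and 6.75 ± 3.75 in the same order (exact p = 0.085 for the cold and 0.045 for the diet). The Fasn to Acaca ratio stayed between 6.25 and 10.6 in all 12 libraries (exact p = 0.975 and 0.275). Adjusted over these 6 exact tests, the smallest values were 0.03 and 0.06 for the Acaca to Acacb ratio (cold and diet). The adjustment does not cover the choice of these pairs, and the ratios use the same counts as the tests of single genes. A ratio shows unequal change and not which gene of a pair changed.

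**Figure D3:**
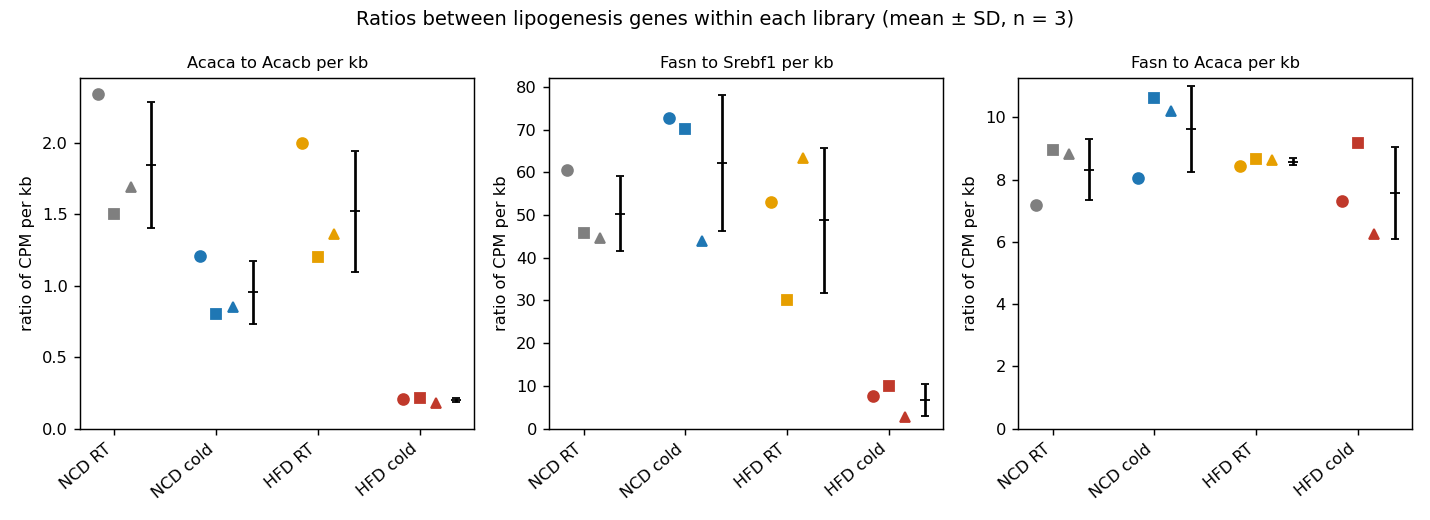
Ratios of CPM per kilobase of exon between pairs of lipogenesis genes in each library, with the mean ± SD of each group. The Acaca to Acacb ratio lies between 0.181 and 0.212 in HFD cold and the Fasn to Srebf1 ratio between 2.62 and 9.95, whereas the Fasn to Acaca ratio spans 6.25 to 10.6 over all libraries.

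Per kilobase of exon, Fasn ranked above Acly and Thrsp in NCD RT, with 5312 ± 319, 1679 ± 285 and 1172 ± 98.6 CPM per kilobase (SD, n = 3). In HFD cold the order was Fasn (358 ± 178), Acacb (226 ± 55.8), Thrsp (145 ± 64.3), Me1 (97.4 ± 7.15) and Acly (63.5 ± 23.6), so Acly moved from place 2 to place 5 and Acacb from place 6 to place 2, though the neighbours Fasn and Acacb differ by less than the spread of Fasn. Single libraries moved several genes together. NCD cold replicate 2, rich in muscle markers, was the lowest of its group for all 10 genes. HFD cold replicate 2 was the highest of its group for 7 genes and HFD cold replicate 1 the lowest for 8. HFD RT replicate 1 was the highest for 7 genes, and HFD RT replicate 3, also rich in muscle markers, the lowest for 7.

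Genes around the pathway were taken from lists. Of 17 genes that supply citrate and NADPH, 0 were higher in any of the 4 main contrasts, and 2, 4, 4 and 7 were lower, for cold on NCD and on HFD and for HFD at room temperature and in the cold, respectively. The list's median log2 fold changes were -0.14, -0.25, -0.52 and -0.52, where all genes tested had medians of -0.01, -0.04, 0.03 and 0.02. Slc25a1, the mitochondrial citrate carrier, had log2 fold changes of -1.15, -1.93, -1.19 and -1.97 in these contrasts (adjusted p = 0.0100, 0.000693, 0.0175 and 0.00126). Slc25a10, the dicarboxylate carrier, was lower in the cold on NCD (-1.92, adjusted p = 0.00855) and on HFD at room temperature (-2.58, adjusted p = 0.00534). Tkt and Taldo1, of the pentose phosphate pathway, had -1.68 and -0.99 for cold on HFD (adjusted p = 0.00341 and 0.00892) and -2.20 and -1.49 for HFD in the cold (adjusted p = 0.00198 and 0.00245). G6pdx, which opens that pathway and yields NADPH, had -0.86 and -0.74 for HFD at room temperature and in the cold (adjusted p = 0.0379 and 0.0411). Pgd, another NADPH-producing dehydrogenase of that pathway, had -1.23 for HFD in the cold (adjusted p = 0.00664).

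Of 17 tested genes that SREBP1 or ChREBP are known to drive (19 listed), 2 were higher and 1 lower for cold on NCD, 3 higher and 4 lower for cold on HFD, 0 higher and 6 lower for HFD at room temperature, and 0 higher and 10 lower for HFD in the cold. The medians were 0.08, -0.18, -0.78 and -0.87. Gpam and Acsl5, which act in glycerolipid synthesis and fatty acid activation, rose in the cold on NCD by 1.48 and 1.37 (adjusted p = 0.000878 and 0.00150) and on HFD by 0.75 and 0.87 (adjusted p = 0.0172 and 0.00982). Pnpla3, a lipid droplet protein, had -2.20 for cold on HFD and -2.18 for HFD in the cold (adjusted p = 0.00441 and 0.00914). Scd1, the stearoyl-CoA desaturase, had -0.97, -1.73 and -1.83 for cold on HFD, HFD at room temperature and HFD in the cold (adjusted p = 0.0362, 0.00887 and 0.00429). Aacs, acetoacetyl-CoA synthetase, had -1.25 for cold on HFD and -2.57 for HFD in the cold (adjusted p = 0.0319 and 0.00250). The fatty acid elongases Elovl5 and Elovl6 had -1.33 and -1.17 for HFD at room temperature (adjusted p = 0.00824 and 0.0326). Acsl5 was lower on HFD, with -1.09 at room temperature and -1.59 in the cold (adjusted p = 0.0106 and 0.00126). Khk, ketohexokinase of fructose use, had -0.74 for cold on NCD and -0.87 for cold on HFD (adjusted p = 0.0305 and 0.0127).

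Of 8 genes that process SREBP, 1 was called in both HFD contrasts and none by edgeR in the cold ones. It was Insig1, a retention protein of the endoplasmic reticulum and itself a SREBP target, with -1.31 at room temperature and -1.51 in the cold (adjusted p = 0.00719 and 0.00233). Of 18 other regulators, Mlycd, which encodes the decarboxylase that degrades malonyl-CoA, was higher in the cold on both diets (1.29, adjusted p = 0.000778, and 0.51, adjusted p = 0.0413) and lower on HFD in the cold (-0.59, adjusted p = 0.0395). Prkaa1, a catalytic subunit of AMP kinase, was higher for cold on HFD (0.68, adjusted p = 0.0393). The other 16 were not called in these 4 contrasts. Of 6 tested genes of mitochondrial fatty acid synthesis (7 listed), Cbr4 was called, in HFD in the cold (-0.67, adjusted p = 0.0483).

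**Figure D4:**
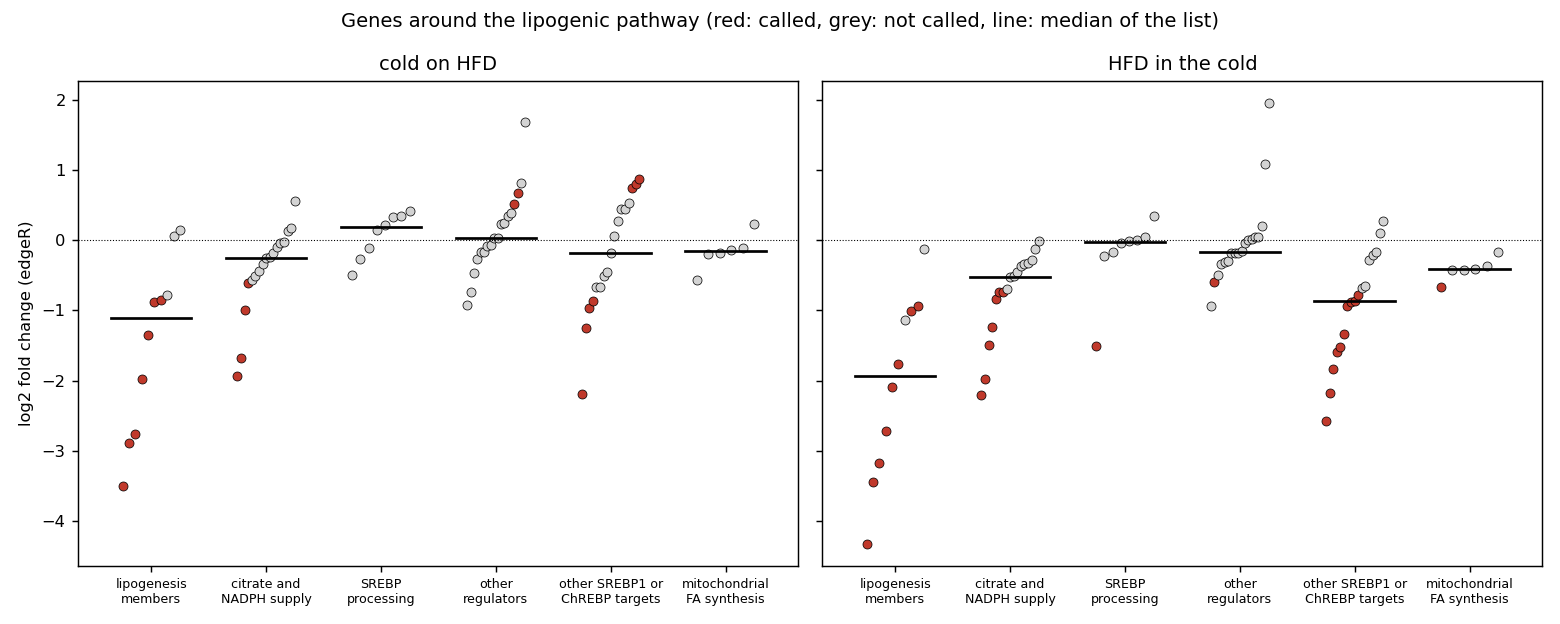
Log2 fold changes (edgeR) of the lipogenesis genes and of 5 lists of genes around the pathway, for cold on HFD and for HFD in the cold, with red points for genes called, grey points for the rest and a line at each median. The medians of the 10 lipogenesis genes are -1.11 and -1.93, and the red points of citrate and NADPH supply lie below 0 in both panels.

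The genes whose profile over the 12 libraries was most like that of each lipogenesis gene were found by the root mean square difference of standardised log2 CPM, among 13953 genes with a mean of at least 1 CPM. Among pairs of the 10 lipogenesis genes, Acly and Acaca were closest (0.0958), followed by Fasn and Acaca (0.116) and by Fasn and Acly (0.127). Outside the pathway, Pdk1, a kinase that inhibits pyruvate dehydrogenase, was the nearest to Acly (0.0933) and to Acaca (0.132). Ralgapa2 was the nearest to Fasn (0.122). Tkt, of the list of NADPH supply, was the nearest to Thrsp (0.138), and Slc2a5, a fructose transporter, was the third nearest to Acaca (0.151). Angptl8 was the nearest to Mid1ip1 (0.241), while the nearest to Srebf1, Ikbip, was farther away (0.360). All of these points share libraries, depth and groups, so the values are a description.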

How the data were processed

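Libraries for paired-end sequencing were made from total RNA of iBAT after removal of ribosomal RNA. The authors filtered reads with cutadapt and quantified them with salmon against GENCODE M22, alone or combined with RNAcentral 5. The table the authors deposited holds 1 estimated count for each gene and library, as a whole number, not normalized and not pooled over replicates. GRCm38 and DESeq2 are named in the submitters' processing notes. Libraries held 15136861 to 46740702 counts. Whether strand was used in counting is not given in the sources used here, so Acss2, Me1, Mid1ip1, Mlxipl and Srebf1, whose exons overlap genes on the other strand, are uncertain to that extent.

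Low genes were removed by filterByExpr of edgeR (minimum count 10). Counts were normalized with TMM and fitted as 4 group means with the quasi-likelihood method of edgeR 4.0.16 in R 4.3.3, with adjustment over all 16737 genes tested. CPM values are TMM-normalized, and log2 CPM used a prior count of 2. Exon lengths and gene positions came from GENCODE M21 on GRCm38, promoters from RefSeq (GRCm38.p6), which held all 10 genes. Steps were tested on simulated data. The genes and lists were chosen with earlier results of these data known. Named genes were all 10 lipogenesis genes, up to 4 genes called with the largest change per pathway list and contrast, and the genes of nearest profile. Lists of brown, pan- and white adipocyte, muscle, immune, endothelial, fibroblast, Schwann cell, hepatocyte and erythroid markers described other cell types.

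Libraries with the same number at room temperature and in the cold departed from their group means in a similar way, the correlations across genes being 0.219, 0.456 and 0.281 on NCD and 0.155, 0.217 and 0.386 on HFD. Between diets, libraries with the same number had correlations from -0.214 (NCD cold and HFD RT replicate 2) to 0.365 (NCD RT and HFD RT replicate 1). In the pairs with 0.456 and 0.386, both libraries were rich in muscle markers, and the part of muscle in these values was not tested. The sources used here do not say whether libraries with the same number were paired. Alternatives were DESeq2 1.42.0, DESeq2-type size factors, no filter, a batch term, the replicate number as a block over all groups or within diet, batch 1 alone, only the libraries compared, no minimum fold change and each library left out in turn. Leaving out the 4 muscle-rich libraries was chosen after seeing the data.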

Additional observations from a re-analysis of the deposited data

How the results depend on the processing

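The number of lipogenesis genes called changed by more than 1.5 times as follows. For cold on NCD it was 1, and 0 to 2 with 1 library left out and 0 without the 4 muscle-rich libraries. For cold on HFD it was 7, and 4 in batch 1 alone. For HFD at room temperature it was 3, and 7 with DESeq2, 6 without a filter, 0 in batch 1 alone, 1 without the muscle-rich libraries and 1 to 5 with 1 library left out. For HFD in the cold it was 8, and 4 in batch 1 alone. For the interaction it was 0, and 3 with DESeq2, 3 without a filter and 0 to 3 with 1 library left out. For the 4-group test it was 5, and 8 with DESeq2, 8 without a filter, 0 in batch 1 alone, 0 without the muscle-rich libraries and 3 to 5 with 1 library left out. Batch 1 alone and the set without muscle-rich libraries hold fewer samples, and otherwise the cause was not tested. The replicate block over all groups moved none of these counts by over 1.5 times, nor did the block within diet (7 genes for cold on HFD, 1 for cold on NCD and 0 for the interaction), which was run for these contrasts and the averaged cold effect.

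Changes of sign concerned values that were not called. For Srebf1, cold on HFD became -0.049 with a batch term, -0.059 with the replicate block, -0.61 in batch 1 alone and -0.61 without the muscle-rich libraries, and ranged from -0.34 to 0.35 with 1 library left out. HFD in the cold ranged from -0.51 to 0.21 for Srebf1 with 1 library left out, with positive values of 0.21 without NCD cold replicate 3 and 0.18 without HFD cold replicate 1, and its interaction became -0.087 without the muscle-rich libraries. Acacb ranged from -0.062 to 0.31 for cold on HFD and from -0.35 to 0.055 for the interaction with 1 library left out. The interaction of Mid1ip1 was 0.015 with DESeq2, 0.014 with its size factors, 0.012 without a filter, 0.0037 with a batch term, 0.20 with the replicate block within diet and 0.23 in batch 1 alone, and ranged from -0.31 to 0.68 with 1 library left out. Mlxipl became 0.026 for cold on NCD without the muscle-rich libraries. Over all genes tested, the count for cold on NCD was 1049, and 490 to 577 without any NCD RT library or NCD cold replicate 2, 352 in batch 1 alone and 281 without the muscle-rich libraries. For cold on HFD it was 1603, and 1013 without HFD cold replicate 1, 855 in only the libraries compared, 416 in batch 1 alone and 731 without the muscle-rich libraries. For HFD at room temperature it was 349, and 117 to 207 without any NCD RT library or HFD RT replicate 2 or 3, 826 with DESeq2, 42 in batch 1 alone and 72 without the muscle-rich libraries. For HFD in the cold it was 795, and 239 to 525 without replicate 1 or 3 of NCD cold or HFD cold or HFD RT replicate 2, 1312 with DESeq2, 149 in only the libraries compared, 53 in batch 1 alone and 384 without the muscle-rich libraries. For the interaction it was 0, and 61 with DESeq2, 27 without a filter, 1 and 2 with the replicate block over all groups and within diet, 3 without NCD cold replicate 2, 22 without HFD cold replicate 2 and 3 without the muscle-rich libraries. For the 4-group test it was 427, and 106 to 255 without any 1 library, 2512 with DESeq2, 1082 without a filter, 270 with the replicate block, 0 in batch 1 alone and 11 without the muscle-rich libraries. HFD averaged over temperatures had 1305, and 539 in batch 1 alone and 2262 with no minimum fold change, and the averaged cold effect 2123, and 3539 with no minimum fold change. The 8 libraries of batch 1 give 2 per group, and batch 2, with 1 each, allows no test alone.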

Other observations

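Of 8 brown adipocyte genes, 5 were called higher for cold on NCD and 4 for cold on HFD by edgeR, and none lower. Of 8 pan-adipocyte genes, 4 were called higher for cold on NCD, and for cold on HFD 1 was higher and 1, Adipoq, lower (-0.69, adjusted p = 0.0232). Lpl, the lipase that releases fatty acids from circulating lipoproteins, rose in the cold by 1.42 on the log2 scale on NCD (SE 0.15, adjusted p = 0.000535) and by 1.80 on HFD (SE 0.15, adjusted p = 0.000168) in edgeR. Cd36, a fatty acid transporter, rose in the cold on NCD by 0.62 (SE 0.12, adjusted p = 0.0132), and had 0.40 on HFD (adjusted p = 0.0591), which did not pass. Ucp1, the uncoupling protein of brown fat, rose in the cold by 1.96 on NCD (adjusted p = 0.000274) and by 0.92 on HFD (adjusted p = 0.00656), and Elovl3, a fatty acid elongase induced by cold in this tissue, by 2.69 and 2.76 (adjusted p = 0.000375 and 0.000227). Cox7a1 and Cox8b, subunits of cytochrome c oxidase, had 0.27 and 0.08 on NCD and -0.33 and -0.64 on HFD, and Lipe, hormone-sensitive lipase, had 0.01 and -0.53, none of which passed.

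Of 6 tested white adipocyte genes, 0 were called for cold on NCD by edgeR, and for cold on HFD Lep was lower (-2.92, adjusted p = 0.0473) and Retn higher (0.88, adjusted p = 0.00982). Retn was lower on HFD at room temperature (-2.28, adjusted p = 0.000235) and in the cold (-0.82, adjusted p = 0.0252), and Mest was higher for HFD in the cold (2.40, adjusted p = 0.0104). Of 7 endothelial genes, Pecam1 was higher for cold on NCD (0.58, adjusted p = 0.0101) and for HFD at room temperature (0.72, adjusted p = 0.00786). Schwann cell genes included Mal, higher for cold on HFD (2.83, adjusted p = 0.00151) and for HFD in the cold (3.06, adjusted p = 0.00233), and S100b, higher for HFD at room temperature (adjusted p = 0.0104). Of 8 fibroblast genes, Ly6a was called higher for cold on HFD (0.52, adjusted p = 0.0475) and 0 lower. The list went the other way, with a median of -0.28 and 2 of 8 values above 0. Of 5 tested hepatocyte genes, Alb and Trf were lower for cold on NCD (-3.66 and -1.03, adjusted p = 0.0391 and 0.0293). Serpina1a and Serpina1b had 1.00 and 0.98 in that contrast and were not called. Trf was lower for HFD at room temperature (-1.63, adjusted p = 0.00887), and Serpina1a was higher for HFD in the cold (1.91, adjusted p = 0.0272). Erythroid genes summed to 793 to 1773 CPM over the 12 libraries, and 0 of 5 were called by edgeR in the 4 main contrasts.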
